A study of Homo sapiens with 6 samples.

Results

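RUNX1 and 4 other transcription factors of blood lineages, CEBPA, TAL1, HOXA10 and POU4F1, were examined by name in RNA sequencing of Kasumi-1 cells. All 5 are among the 7983 genes of the deposited table, and all 5 passed a filter that kept the 7516 genes whose normalized read counts averaged at least 10. Kasumi-1 is an established human acute myeloid leukaemia line whose defining lesion is a chromosomal translocation that fuses RUNX1 to RUNX1T1. The 3 control libraries, titled sgNT and numbered 1 to 3, came from Kasumi-1 cells labelled WT. The 3 knockout libraries, titled sgSETD8 and numbered 1 to 3, came from Kasumi-1 cells targeted at SETD8 with CRISPR/Cas9 and labelled SETD8 knockout. SETD8, listed as KMT5A, is a methyltransferase of histone H4. All cells grew in the same serum-containing medium with streptomycin and penicillin. The labels do not say whether the knockout cells were 1 clone or a mixture. Nor do they say whether the numbers mark separate cultures, different guides or technical repeats. The p-values cover no more than the spread between the libraries, which may be technical.

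These factors bind DNA and set which blood lineage a progenitor enters. RUNX1, with its partner CBFB, is needed for the first blood stem cells and for myeloid and platelet maturation, and the RUNX1-RUNX1T1 fusion recruits corepressors to RUNX sites. C/EBP-alpha, encoded by CEBPA, drives granulocyte formation. TAL1 works in a complex with E proteins, LMO and LDB1 proteins in stem, erythroid and megakaryocyte cells. HOXA10 belongs to the clustered homeobox genes, which are high in progenitors, and POU4F1 is a neuronal POU factor that is also known to be transcribed in leukaemia with the RUNX1-RUNX1T1 fusion.

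The table lists only genes with a deposited unadjusted p of at most 0.05 on this same contrast, so a listed gene was selected for differing and genes outside it were not analysed here, with nothing shown about whether they changed. Reads assigned to listed genes ran from 10966349 to 12557974 per library. KMT5A had 1191, 1212 and 1255 normalized counts in control libraries and 880, 933 and 939 in knockout libraries, which is -0.41 on the log2 scale (SE 0.07, limma-trend adjusted p = 5.65e-05). A gene count does not show whether the remaining transcripts are intact. Of 15 markers of myeloid leukaemia blasts, 13 were tested, with 6 higher, POU4F1 included, 4 lower and 3 not called. Among them KIT, a stem cell factor receptor, had 60704 ± 955 (SD, n = 3) counts in control and 43551 ± 793 in knockout cells, and CD33 rose from 435 ± 53.6 to 990 ± 35.3. CD34 was at 7153 ± 283 and 7818 ± 85.1 and did not pass the test (log2 fold change 0.13, adjusted p = 0.0695, limma-trend). CD34 passed by DESeq2 (0.0397) and with adjustment over the tested genes alone (0.0263), and was at 0.34 with the median of neighbouring genes taken out and at 0.30 with the length trend taken out, both called.

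All 5 factors were higher in SETD8 knockout libraries, with no overlap between the groups, by 1.43- to 2.11-fold in mean normalized count. The change was 1.57-fold for RUNX1, 1.53-fold for CEBPA, 1.73-fold for TAL1, 2.11-fold for HOXA10 and 1.43-fold for POU4F1. By limma-trend, with Benjamini-Hochberg adjustment over the 19860 genes the authors adjusted over, all 5 were called higher at adjusted p below 0.05. In the same fit 94.1% of tested genes were called, 47.3% higher and 46.7% lower, and in 95.4% the groups did not overlap, 48.0% higher and 47.4% lower. A call is therefore common in this table, and the sizes, the shared direction and the surroundings of these genes are given below as description. The median log2 fold change of all tested genes was 0.14. Fold changes on the log2 scale are of the normalized count plus 1. In bulk RNA a change in the number of cells of a kind and a change in RNA per cell cannot be told apart.

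**Figure D1:**
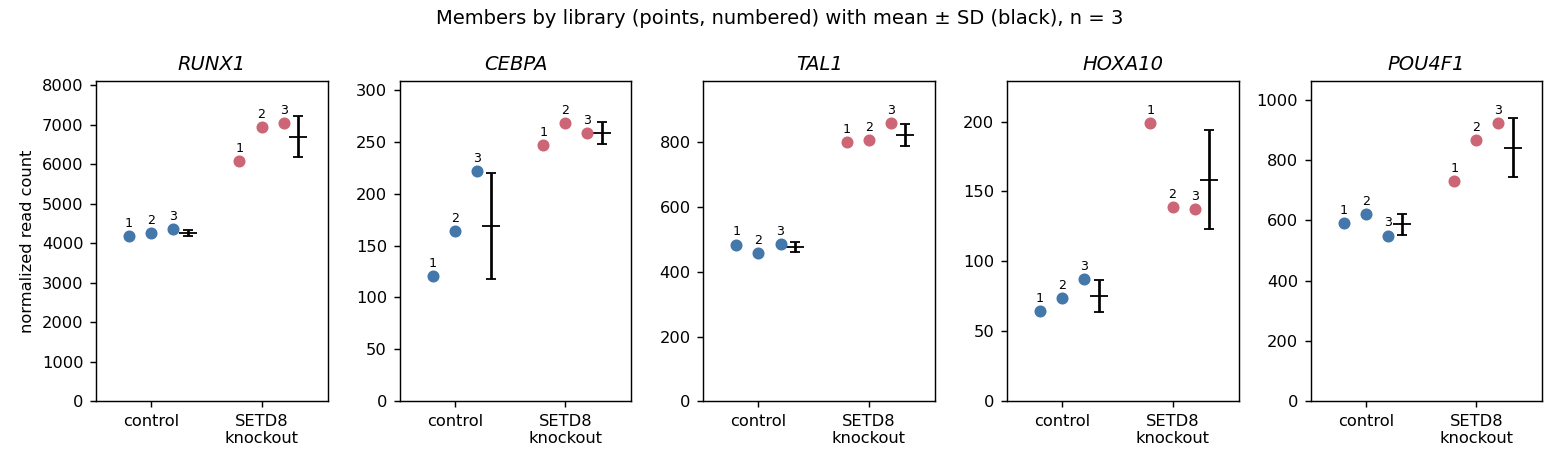
Normalized read counts of the 5 factors in each library, with 3 control and 3 SETD8 knockout points per panel, group means as short horizontal lines and SDs as error bars. In each of the 5 panels the lowest knockout library lies above the highest control library, with the closest approach for CEBPA, between 222 and 247.

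RUNX1 (ENSG00000159216, chr21:34787801-36004667, minus strand, hg38) was the most abundant of the 5. Its normalized counts were 4185, 4253 and 4349 in control libraries and 6089, 6940 and 7044 in knockout libraries. The groups lay far apart, and the first knockout library was the lowest of the 3. The mean went from 4262 ± 82.8 to 6691 ± 524 (SD, n = 3), a log2 fold change of 0.65 (SE 0.06, 95% interval 0.52 to 0.77, limma-trend adjusted p = 9.36e-09). GENCODE 29 gives the gene 17 transcripts, 9 of them coding, from 7 coding starts, which the count per gene does not separate.

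Reads from the RUNX1 end of the fusion transcript also fall on RUNX1, and reads from its other end on RUNX1T1, so the intact and fused transcripts cannot be told apart for either gene. RUNX1T1, a corepressor gene of the ETO family, had 2798, 2674 and 2809 counts in control and 3115, 2911 and 3134 in knockout libraries. The knockout libraries were all higher, but the log2 fold change of 0.15 (SE 0.06) did not pass the test (adjusted p = 0.0542, limma-trend). It passed by the DESeq2 test at adjusted p = 0.0480 with no filter on low values at 0.0469, and with adjustment over the tested genes alone at 0.0205. With the trend of fold change on gene length taken out it was at 0.34 (adjusted p = 5.09e-05, limma-trend). The ratio of RUNX1 to RUNX1T1 normalized counts, a comparison chosen after the values were seen, was 1.496, 1.591 and 1.548 in control libraries and 1.95, 2.38 and 2.25 in knockout libraries. Its mean went from 1.54 ± 0.0476 to 2.20 ± 0.219, a difference of 0.65. The two-sided exact permutation p was 0.1, the smallest that 3 against 3 libraries can give. Both genes come from a table selected for differing, so no conclusion is drawn from this p. The ratios of the groups did not overlap, and the log2 fold changes of the 2 genes were 0.50 apart.

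The other measured RUNX genes went the opposite way to RUNX1. RUNX2, the bone and lymphoid paralog, fell from 1745 ± 83.9 to 988 ± 74.6 (log2 fold change -0.82, limma-trend adjusted p = 4.12e-09). RUNX3, the third paralog, fell from 633 ± 102 to 463 ± 55.4 (-0.44), and CBFB, which stabilises RUNX proteins on DNA, rose from 1824 ± 78.9 to 2313 ± 118 (0.34). With the median log2 fold change of tested genes within 5 Mb taken out, CBFB was at -0.040 and not called. Over the list of RUNX proteins, their cofactors and the ETO family, 15 of 17 genes were tested, with 5 higher, RUNX1 included, 8 lower and 2 not called, and a median of -0.33. Lower were CREBBP, a histone acetyltransferase and RUNX1 coactivator, from 1324 ± 73.7 to 609 ± 85.2, SIN3A, a corepressor scaffold, from 3123 ± 203 to 1981 ± 41.5, and CBFA2T3, an ETO paralog, from 115 ± 17.1 to 67.2 ± 21.6. Without the third knockout library CBFA2T3 was no longer called (adjusted p = 0.0627, limma-trend).

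Genes known as bound or controlled by RUNX1 or by the fusion were split in direction. Of 46 written, 35 were tested, with 17 higher, CEBPA and POU4F1 included, 16 lower and 2 not called. Their median was 0.19 on the log2 scale. PRTN3 and AZU1, which encode azurophil granule proteins, rose from 58.2 ± 8.27 to 1754 ± 53.4 and from 26.3 ± 5.57 to 305 ± 56.6. CDKN1A, a cell cycle inhibitor, rose from 371 ± 33.8 to 1615 ± 70.6. MPO, the granule peroxidase, fell from 12255 ± 373 to 1541 ± 27.3. SPI1, which encodes PU.1 and is also on the granulocyte and monocyte list, rose from 2474 ± 134 to 3563 ± 134 (log2 fold change 0.53).

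TAL1 (ENSG00000162367, chr1:47216290-47232220, minus strand) had normalized counts of 484, 458 and 486 in control libraries and 800, 806 and 860 in knockout libraries. Both groups were tight, and the lowest knockout library stood well above the highest control library. The mean went from 476 ± 15.6 to 822 ± 32.8, a log2 fold change of 0.79 (SE 0.08, 95% interval 0.61 to 0.96, limma-trend adjusted p = 9.78e-08).

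The start regions of TAL1 and RUNX1 are shown, the former because its windows held the most motif matches of the 7 windows found for the 5 factors and the latter because RUNX1 is the most abundant factor. They are the 250 bases before the start given by RefSeq on GRCh38.p14, read 5′ to 3′ on the minus strand, with capitals marking each motif match. The searched motifs, on both strands, were RUNX as TGTGGT or TGCGGT, the E-box CANNTG that TAL1 and its partners bind, GATA as AGATAA, C/EBP as TTGCNNAA, ETS as CCGGAA and HOX-PBX as TGATTNAT. The windows are TAL1 window 2 at chr1:47231716-47231965, TAL1 window 1 at chr1:47232336-47232585 and the RUNX1 window at chr21:34888700-34888949.
TAL1 window 2: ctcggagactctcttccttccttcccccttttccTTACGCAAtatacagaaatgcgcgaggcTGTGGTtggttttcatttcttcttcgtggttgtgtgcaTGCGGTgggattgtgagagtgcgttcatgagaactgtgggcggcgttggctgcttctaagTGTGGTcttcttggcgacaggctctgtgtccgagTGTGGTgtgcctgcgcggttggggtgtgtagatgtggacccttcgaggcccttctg
TAL1 window 1: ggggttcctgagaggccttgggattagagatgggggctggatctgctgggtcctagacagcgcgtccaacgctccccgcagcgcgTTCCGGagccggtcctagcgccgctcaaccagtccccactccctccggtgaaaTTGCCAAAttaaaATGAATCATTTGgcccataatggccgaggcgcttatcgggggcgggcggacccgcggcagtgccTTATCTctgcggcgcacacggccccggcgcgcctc
RUNX1 window: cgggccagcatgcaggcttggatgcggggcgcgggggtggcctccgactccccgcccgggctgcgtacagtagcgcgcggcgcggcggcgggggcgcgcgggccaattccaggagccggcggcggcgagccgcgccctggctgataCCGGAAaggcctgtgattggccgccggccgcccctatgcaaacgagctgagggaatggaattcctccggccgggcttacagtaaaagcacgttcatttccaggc

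TAL1 window 2 held 3 TGTGGT and 1 TGCGGT, all on the gene's strand, and 1 C/EBP match. TAL1 window 1 held 1 match each of ETS, C/EBP, GATA, HOX-PBX and the E-box, and the last pair overlap. The RUNX1 window held 1 ETS match. Over 34943 RefSeq windows of the same length, TGTGGT was in 11.0%, TGCGGT in 5.82%, AGATAA in 9.19%, TTGCNNAA in 9.06%, CCGGAA in 14.5%, TGATTNAT in 2.49% and CANNTG in 61.8%. In the other 4 windows, POU4F1 had 3 E-box matches, and none of these letters was found in the CEBPA window or in either HOXA10 window. A match is a description of letters and was not linked to binding in these cells.

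The genes for proteins known to work with TAL1 were divided. Of 20 written, 13 were tested, with 6 higher, TAL1 included, and 7 lower, and a median of -0.22. LMO1, a bridging protein of the complex, fell from 137 ± 25.9 to 11.1 ± 1.53 (log2 fold change -3.50, limma-trend adjusted p = 1.79e-09). TCF12, an E protein partner, fell from 3971 ± 88.2 to 2912 ± 48.3, LDB1, which joins complexes into dimers, fell from 1448 ± 53.3 to 1127 ± 65.7, and SSBP2, which protects LDB1 from degradation, fell from 459 ± 14.3 to 333 ± 36.0. TCF3, the other named E protein, rose from 3568 ± 161 to 4190 ± 257, and KDM1A, a histone demethylase, from 2614 ± 40.4 to 3495 ± 83.7. With the median of neighbouring genes taken out, TCF12 was at -0.047 and SSBP2 at -0.19, neither called, and the signs of TCF3 (-0.24) and LDB1 (0.30) were turned.

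Among 40 erythroid and megakaryocyte genes controlled by TAL1 and GATA factors, 9 were tested, with 2 higher, TAL1 itself and EPOR, and 7 lower, at a median of -0.77. EPOR, the erythropoietin receptor, rose from 359 ± 18.6 to 564 ± 16.6. CA2, an erythroid carbonic anhydrase, fell from 4417 ± 93.2 to 1555 ± 78.4, and TMCC2 from 110 ± 9.21 to 57.4 ± 11.0. ITGA2B, the platelet integrin, fell from 134 ± 18.1 to 74.7 ± 10.5, and was not called with neighbours taken out (-0.27). Of 9 markers of erythroid cells none is in the table, and the megakaryocyte markers summed to 153 to 213 in control and 93.4 to 102 in knockout libraries. Their part in the TAL1 values was not tested. Of the factors of erythroid, megakaryocyte and mast cells, 16 of 22 were tested, with 5 higher, TAL1 included, and 11 lower, at a median of -0.33. NFE2, a regulator of platelet release, fell from 256 ± 7.46 to 141 ± 12.4, and STAT5B, a signalling factor below cytokine receptors, from 5148 ± 99.0 to 2810 ± 87.1.

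CEBPA (ENSG00000245848, chr19:33299934-33302564, minus strand) had the widest control group for its level. Its normalized counts were 121, 164 and 222 in control libraries and 247, 268 and 259 in knockout libraries. The groups did not overlap, but the highest control library was nearer to the knockout group than to the lowest control library. The mean went from 169 ± 50.9 to 258 ± 10.6, a log2 fold change of 0.65 (SE 0.17, 95% interval 0.29 to 1.01, limma-trend adjusted p = 0.00417). Without the first control library the log2 fold change was 0.43 (adjusted p = 0.0422, limma-trend), and without the third it was 0.87.

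In the C/EBP family, CEBPE, which acts late in granulocyte maturation, rose from 218 ± 30.3 to 526 ± 25.5 (log2 fold change 1.27, limma-trend adjusted p = 1.08e-08). CEBPB, the factor of stress-driven granulocyte formation, and CEBPG, a dimer partner without an activation domain, fell from 963 ± 22.6 to 696 ± 20.5 (-0.47) and from 1615 ± 56.1 to 1132 ± 86.1 (-0.51). CEBPB was at -0.050 and not called with neighbours taken out. In the list of the family with its regulators, 14 of 20 genes were tested, with 4 higher, CEBPA included, 9 lower and 1 not called, and a median of -0.52. DDIT3, a C/EBP-related stress factor, fell from 784 ± 19.7 to 323 ± 52.9. TRIB1, which directs C/EBP-alpha to degradation, fell from 580 ± 49.0 to 294 ± 43.7, and TRIB3, another Tribbles pseudokinase, from 4116 ± 325 to 1837 ± 181.

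Of 30 genes controlled by C/EBP-alpha, 16 were tested, with 8 higher, 7 lower and 1 not called, at a median of 0.33. This list shares PRTN3, AZU1 and MPO with the RUNX1 list. CSTA, a protease inhibitor of myeloid cells, rose from 28.1 ± 5.39 to 304 ± 71.3, and CSF3R, the granulocyte colony-stimulating factor receptor, from 1615 ± 60.2 to 2794 ± 53.9. Granulocyte and monocyte factors leaned lower, with 8 higher, CEBPA included, and 13 lower among 21 tested of 37 written, and a median of -0.47. By the size of their change, those named from this list were JUN, which fell from 5380 ± 111 to 1499 ± 53.1, KLF6 from 2828 ± 85.6 to 1056 ± 87.3, KLF2 from 170 ± 28.9 to 26.4 ± 12.4 and EGR1 from 140 ± 7.50 to 46.1 ± 12.4. IRF8, a monocyte and dendritic cell factor below the filter, was at 0, 0.972 and 0 in control libraries and 22.9, 12.9 and 18.7 in knockout libraries. Neutrophil markers, 2 tested of 9 and both higher, summed to 1669 to 1751 in control and 2894 to 2977 in knockout libraries. CXCR2, an interleukin receptor among them, was not called without the third control library (adjusted p = 0.0659) or with neighbours taken out (0.531, limma-trend). Monocyte markers, 3 tested of 10 with 2 higher and 1 lower, summed to 113 to 189 and 201 to 246, and CSF1R, a higher one, was not called without the first control library (adjusted p = 0.0881) or with neighbours taken out (0.167, limma-trend). The part of these cells in the CEBPA values was not tested.

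HOXA10 (ENSG00000253293, chr7:27170591-27180261, minus strand) had the largest relative change of the 5 and the lowest level. Its normalized counts were 64.4, 73.9 and 87.2 in control libraries and 199, 139 and 137 in knockout libraries. Each knockout library was above each control library, and the first was well above the other two. The mean went from 75.2 ± 11.5 to 158 ± 35.2, a log2 fold change of 1.05 (SE 0.20, 95% interval 0.64 to 1.47, limma-trend adjusted p = 0.000169). Without the first knockout library it was 0.88. HOXA9 and 1 further gene overlap HOXA10 on the same strand and HOXA10-AS on the other. None of them is in the table, and the sources used here do not give whether counting used the strand.

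Of 48 HOX genes, HOX-linked RNAs and TALE cofactors written, 10 were tested, with 7 higher, HOXA10 included, 2 lower and 1 not called, and a median of 0.94. HOXA11, the next homeobox gene of the cluster toward HOXA13, rose from 95.9 ± 20.5 to 211 ± 25.8 (log2 fold change 1.14, limma-trend adjusted p = 2.15e-05). The noncoding HOTAIRM1 rose from 43.6 ± 11.9 to 86.8 ± 15.5 (0.99) and HOXA11-AS, antisense to HOXA11, from 48.0 ± 6.87 to 90.0 ± 14.1 (0.89). HOXA11 and HOXA11-AS overlap in part, and without strand reads from the shared stretch could not be told apart. HOXA5 was called at 129 ± 20.6 and 177 ± 18.6 (0.47), but the call was lost on leaving out any of 4 libraries, at adjusted p of 0.0817 to 0.150 by limma-trend. HOXA13, at the far end of the cluster, fell from 275 ± 30.7 to 198 ± 21.4 (-0.47), a call lost without the second control library (adjusted p = 0.0741, limma-trend). PBX3, a HOX cofactor, fell from 549 ± 32.4 to 350 ± 24.0, and was at -0.022 with neighbours taken out. HOXB3, below the filter, was at 0 in all 3 control libraries and at 5.21, 4.96 and 2.80 in knockout libraries.

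Of 23 genes controlled by HOXA9 or HOXA10 with MEIS1, 15 were tested, with 4 higher, 10 lower and 1 not called, at a median of -0.65. PIM1, a survival kinase, fell from 4464 ± 180 to 1519 ± 44.5, and CAMK2D, a calcium-dependent kinase, from 267 ± 19.0 to 118 ± 18.8. FLT3, a progenitor receptor named after its values were seen, fell from 597 ± 44.2 to 310 ± 34.4. DUSP4, a MAP kinase phosphatase, rose from 422 ± 81.5 to 872 ± 102. CDKN1A, also a known HOXA10 target, is given above.

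POU4F1 (ENSG00000152192, chr13:78598362-78603560, minus strand) had normalized counts of 592, 620 and 550 in control libraries and 732, 868 and 924 in knockout libraries. The groups did not overlap, and the first knockout library was nearest to the controls. The mean went from 587 ± 35.4 to 841 ± 98.7, a log2 fold change of 0.51 (SE 0.09, 95% interval 0.32 to 0.70, limma-trend adjusted p = 0.000104). It had the smallest fold of the 5. Of 16 POU genes written, 3 were tested. POU2F2, a B cell factor, rose from 37.1 ± 10.2 to 216 ± 12.5 (2.55), and POU3F3, a neural factor, fell from 383 ± 18.0 to 152 ± 20.2 (-1.33).

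Leukaemias with this fusion are known to transcribe some B cell genes along with POU4F1. All 5 tested of 8 B cell markers were higher, with a median of 0.88, and they summed to 983 to 1221 in control and 1979 to 2155 in knockout libraries. Of all tested genes, from a table selected for differing, 47.3% were called higher and 46.7% lower. PAX5, the B lineage factor and the largest part of the B cell sums, rose from 838 ± 121 to 1162 ± 110. CD79B, a B cell receptor subunit, rose from 73.0 ± 23.6 to 524 ± 23.5. With neighbours taken out PAX5 (0.23, adjusted p = 0.116) and CD79A (0.39, adjusted p = 0.114) were not called by limma-trend. The part of these genes in the POU4F1 values was not tested. Of 9 T and NK cell markers 1 was tested, CD3D, which rose from 1040 ± 22.7 to 1400 ± 133. Of 27 lymphoid factors 14 were tested, 7 higher and 7 lower, at a median of -0.11, with BCL6, a germinal centre repressor, from 1633 ± 107 to 133 ± 26.1 and IKZF2, an Ikaros family factor, from 489 ± 21.0 to 51.0 ± 10.6 among those that fell.

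RUNX1, TAL1 and HOXA10 are also on the list of stem and progenitor cell factors, of which 8 of 22 were tested, with 6 higher and 2 lower and a median of 0.34. ERG, an ETS factor of stem cells, rose from 1936 ± 85.1 to 2713 ± 15.0 (0.49, limma-trend adjusted p = 5.47e-07). FLI1, its paralog, fell from 4747 ± 94.4 to 3680 ± 163, and SOX4 from 1467 ± 31.1 to 1146 ± 41.2. Over all lists 154 genes other than the 5 were tested, of which 61 were higher and 84 lower, with a median of -0.29. In the deposited transcription factor annotation, which holds many of the listed factors too, 516 tested factors other than the 5 had 143 higher (27.7%) and 336 lower (65.1%), at a median of -0.40. Homeobox factors had 13 higher and 9 lower of 24, with a median of 0.38, and basic helix-loop-helix factors, the family of TAL1, 7 higher and 17 lower of 26, with a median of -0.52.

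**Figure D2:**
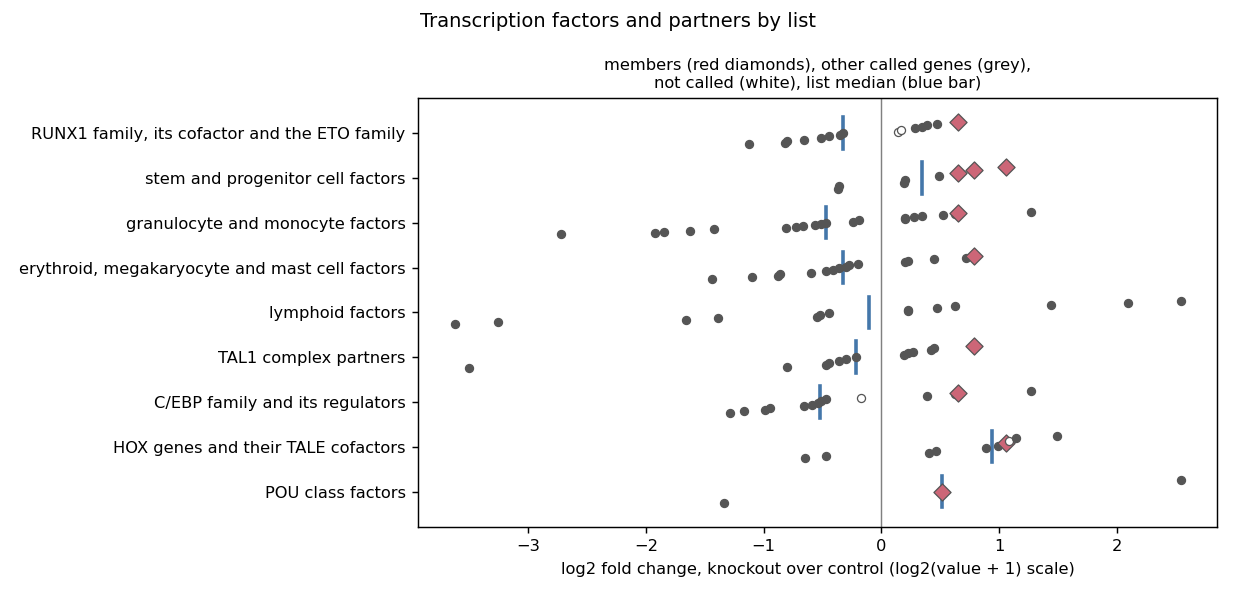
Log2 fold change (knockout over control, on the log2 of normalized count plus 1) of the tested genes of 9 lists of transcription factors and their partners, with the 5 factors as red diamonds, other called genes in grey, genes not called in white and the list median as a blue bar. The 5 factors lie between 0.51 and 1.05, and the list medians between -0.52 and 0.94.

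Per kilobase of the deposited gene length, the control level was highest for RUNX1 at 274 ± 5.31 normalized counts per kilobase. POU4F1 followed at 129 ± 7.78, TAL1 at 83.5 ± 2.74, CEBPA at 64.2 ± 19.3 and HOXA10 at 20.3 ± 3.09. TAL1 and CEBPA did not differ beyond their spread, since the CEBPA control libraries ran from 45.8 to 84.4 and those of TAL1 from 80.3 to 85.2. In knockout libraries the order was the same, with 430 ± 33.6 for RUNX1, 185 ± 21.7 for POU4F1, 144 ± 5.76 for TAL1, 98.0 ± 4.01 for CEBPA and 42.7 ± 9.49 for HOXA10. There no neighbours in the order overlapped.

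The genes around each factor did not move alike, and their values are given because direction was grouped along chromosomes in this table. Distance here is between the lower coordinates of 2 genes, which for these factors, all on the minus strand, is the end of transcription. Within 5 Mb of RUNX1, 33 other genes were tested, 26 of them higher and 4 lower, at a median of 0.46 on the log2 scale, and 11 were above RUNX1. All 5 tested within 1 Mb of the end of RUNX1 were higher, with a median of 0.72. They were MRPS6 (0.86) and ATP5PO (0.72), which serve mitochondrial translation and ATP synthesis, SLC5A3 (0.68), an inositol transporter, RCAN1 (0.32), a calcineurin regulator, and SMIM11A (2.35). SMIM11A has a near-identical copy and few reads, so its value is uncertain, and its call was lost without the second knockout library. The gene is over 1 Mb long, and around its other end, at 36004667, the picture differed. With that outermost annotated start taken as its transcription start, 3 genes were tested within 1 Mb, and all 3 were lower, with a median of -0.35. They were HLCS (-0.54), a biotin ligase gene, DOP1B (-0.35) and MORC3 (-0.20), and the MORC3 call was lost on leaving out any of 4 libraries. RUNX1 has 7 coding starts, and the RefSeq window shown above, chr21:34888700-34888949, lies near its lower coordinate, on the side of the higher genes. The 3 lower genes all lie above the outermost start in coordinate, and their distances to the other coding starts were not worked out. Within 5 Mb the counts and the median between transcription starts were those given above. On chromosome 21 as a whole 67 of 84 other tested genes were higher (79.8%). ERG lies on the same chromosome. The share of higher genes was 64.2% on chromosome 19 (CEBPA), 55.9% on chromosome 1 (TAL1), 54.6% on chromosome 7 (HOXA10) and 41.4% on chromosome 13 (POU4F1).

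By lower coordinates, HOXA10 also had mostly higher neighbours within 5 Mb, with 22 higher and 6 lower of 28 and a median of 0.47. Within 1 Mb of HOXA10, 10 were higher and 1 lower of 11, with a median of 0.69. TAL1 had 26 higher and 16 lower of 43 (median 0.32), although 3 of the 5 within 1 Mb were lower, among them STIL, its neighbour and fusion partner in T cell leukaemia, at -0.22. The STIL call was lost on leaving out any of 4 libraries. CEBPA had 17 higher and 16 lower of 36 within 5 Mb (median -0.23). Within 1 Mb of CEBPA the median had the opposite sign, at 0.43, with 4 higher and 3 lower of 7. CEBPG, on its upper side, fell as given above, and PEPD, beyond CEBPG, rose from 520 ± 99.8 to 778 ± 43.3. POU4F1 had 2 higher and 6 lower of 8 within 5 Mb (median -0.34), opposite to its own direction. The 1 gene tested within 1 Mb of POU4F1 was higher (0.21). Of 35 genes written as lying beside the 5 factors, 7 were tested, with 4 higher, 2 lower and DYRK1A, a kinase gene 2578 kb from RUNX1, not called at -0.17. The call of DYRK1A depended on the setting. By limma-trend it was called lower with TMM scaling (adjusted p = 0.0438), upper-quartile scaling (0.0180) and neighbours taken out (-0.66), among others. With the length trend taken out it was called higher (0.19, adjusted p = 0.0275, limma-trend).

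With the median of the neighbours taken from the knockout libraries, RUNX1 was at 0.19 (adjusted p = 0.0234), TAL1 at 0.47 (0.000218) and HOXA10 at 0.59 (0.0479) by limma-trend, all smaller than without it. CEBPA was then at 0.88 and POU4F1 at 0.85, both larger. With this 5 Mb window all 5 stayed called higher, with HOXA10 near the threshold. The median was taken out as if known exactly, so its own uncertainty is not in these p-values. It came from listed genes only, 8 of them for POU4F1. Medians within 1 Mb were 0.72 for RUNX1, above its own 0.65, 0.43 for CEBPA, -0.22 for TAL1 and 0.69 for HOXA10. They differ from the 5 Mb medians, and whether the calls hold with the 1 Mb medians taken out was not tested. With neighbours taken by transcription start, a choice made after the data were seen, the values were 0.19 for RUNX1, 0.47 for TAL1 and 0.58 for HOXA10 (adjusted p = 0.0495, limma-trend). After this step ERG was at 0.050 and not called, HOTAIRM1 at 0.52 and HOXA11-AS at 0.42 were not called, HOXA5 was at -0.027, and RUNX1T1 was at -0.29 (adjusted p = 0.00053, limma-trend), below 0.

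**Figure D3:**
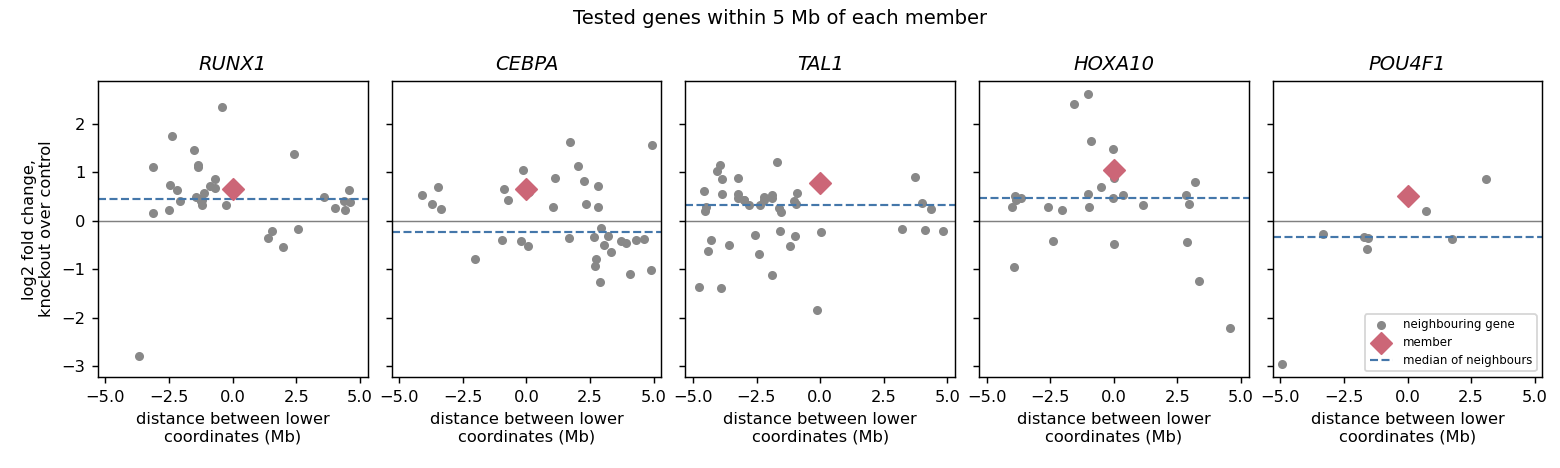
Log2 fold change of each tested gene within 5 Mb of the 5 factors (grey), against the distance between the lower coordinates of the gene and the factor in Mb (the factor's end of transcription), with the factor as a red diamond and the median of its neighbours as a dashed line. The medians are 0.46 for RUNX1, -0.23 for CEBPA, 0.32 for TAL1, 0.47 for HOXA10 and -0.34 for POU4F1, and each factor lies above its line.

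**Figure D4:**
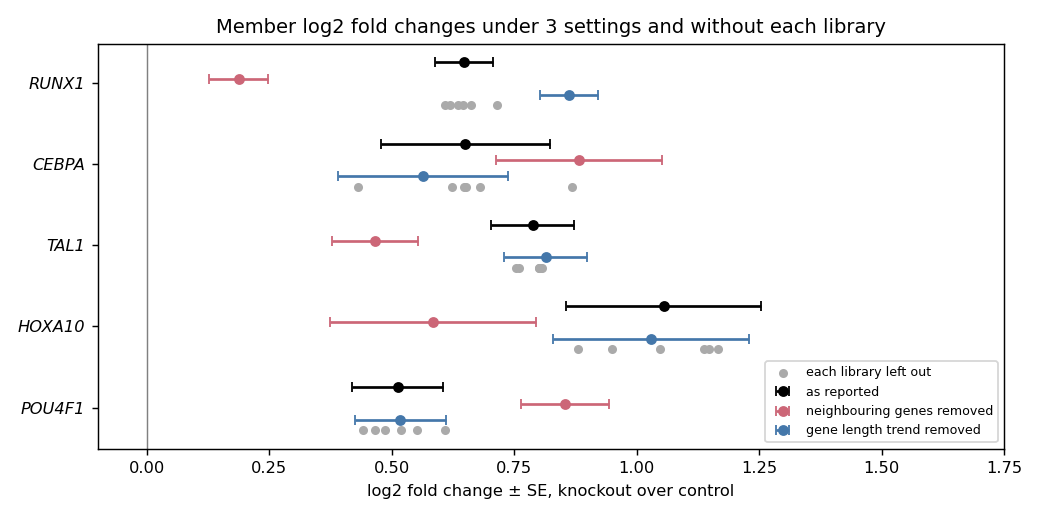
Log2 fold change of the 5 factors as reported, with neighbouring genes taken out and with the gene length trend taken out (each with its SE as a bar), and, as grey points, with each library left out in turn. All values lie above 0, from 0.19 for RUNX1 with neighbouring genes taken out to 1.17 for HOXA10 without the third control library.

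The genes most like each factor were taken as the 3 with the highest Pearson r of log2 values over the 6 libraries, among 6095 protein-coding genes whose mean was at least 100. With 2 groups set apart in the same 6 libraries, high values are common, and the list is a description. For RUNX1 they were EEF1D (r = 0.998), MRPS25 and LIPM, and for TAL1 PARP10 (0.999), STC2 and SBNO1. For HOXA10 they were PAQR7 (0.999), LLPH and ACOT9, and for POU4F1 NISCH (0.994), EMC1 and SEC23A. For CEBPA they were C1orf198 (0.999), PKNOX1 (0.991), a HOX cofactor of the TALE group, and SNX27 (0.990). These 3 shared the low first control library of CEBPA. The call of C1orf198 was lost on leaving out any of 4 libraries, at adjusted p of 0.0529 to 0.189, and that of PKNOX1 on leaving out any of 3, at 0.0534 to 0.179 (limma-trend). SNX27 did not pass the test (adjusted p = 0.0593, limma-trend).

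In the authors' deposited table the log2 fold changes were 0.65 for RUNX1, 0.61 for CEBPA, 0.79 for TAL1, 1.07 for HOXA10 and 0.52 for POU4F1. The adjusted p-values of the authors' deposited table ran from 1.40e-23 for RUNX1 to 0.0107 for CEBPA, so CEBPA was the least certain of the 5 in both analyses.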

How the data were processed

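RNA from Kasumi-1 cells was enriched for poly(A) and made into libraries with a directional kit, per the labels' protocols. The submitters' processing notes name hg38, HISAT2 and DESeq2. Nothing in the sources used here gives the counting strand or annotation. The deposited table gives normalized counts (signal) for 6 libraries, and the authors' log2 fold changes, p-values and adjusted p-values. Values were whole multiples of 1 read within 0.001 in every library, less certainly for control 3 and knockout 2, where 1 read is worth 0.991 and 0.993.

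Gene positions matched GENCODE 29 for 7969 listed genes. Genes with a mean under 10 (467) were left out. Log2(normalized count + 1) was fitted with limma-trend 3.58.1 in R 4.3.3, without covariates, two-sided, with Benjamini-Hochberg adjustment over 19860 genes. The script was tested on simulated data. edgeR 4.0.16 and DESeq2 1.42.0 on recovered reads, other pseudocounts, filters and scalings, a replicate block, removal of the median of neighbours within 5 Mb (at least 5 genes) or of the gene length trend, and leaving out each library were alternatives.

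Members, lists and tests were chosen with earlier results of these data known. Named genes were the 5 factors, KMT5A, RUNX1T1, up to 4 called genes per list, by size of change, whose mean was at least 50, listed genes beside the factors, and the 3 most alike genes. These further genes were named after their values were seen: SPI1, CBFB, RUNX3, TCF12, TCF3, LDB1, KDM1A, FLI1, SOX4, CEBPB, PBX3, HOXA13, HOXA5, HOXB3, IRF8, EPOR, FLT3, KIT, CD33, CD34, SLC5A3, MRPS6, ATP5PO, SMIM11A, HLCS, DOP1B and MORC3.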

Additional observations from a re-analysis of the deposited data

How the results depend on the processing

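All 5 factors kept their direction and stayed called higher in each of 19 alternatives, 1 of them (neighbours by transcription start) chosen after seeing the data, and none was called lower. Neighbours were taken within 5 Mb in these alternatives, and a 1 Mb window was not fitted. Where a neighbour median or the length trend was taken out, it counted as exact, so those p-values leave out its uncertainty. Log2 fold changes ranged from 0.19 to 0.86 for RUNX1, 0.43 to 0.88 for CEBPA, 0.47 to 0.81 for TAL1, 0.58 to 1.17 for HOXA10 and 0.44 to 0.85 for POU4F1, with largest adjusted p-values of 0.0235, 0.0422, 0.000219, 0.0495 and 0.0015. Removing the median of neighbouring genes called 4694 genes, against 7070 as reported, and turned the sign of RUNX1T1 (-0.29), RCAN1 (-0.16), EEF1D (-0.25), SNX27 (-0.041), LLPH (-0.17), EMC1 (-0.024), CBFB (-0.040), TCF3 (-0.24), LDB1 (0.30) and HOXA5 (-0.027). With neighbours by transcription start 4688 genes were called, and the same 10 signs turned at the values above, except HOXA5 at -0.049. Removing the gene length trend turned DYRK1A to 0.19, from -0.17. The other named genes, with the RUNX1 minus RUNX1T1 difference, gave 1861 values under alternatives. The difference has no call and counted as kept while it moved by less than its spread. Of the 1861 values 1753 kept direction and call, 68 lost the call, 19 gained it and 21 reversed. The cause of these changes was not tested. With 3 libraries a group, and a table of genes selected on this contrast, a listed gene's call adds little to its selection.

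The labels do not say whether the library numbers pair the libraries. Deviations of same-numbered libraries correlated at 0.0086, -0.0033 and -0.0499, so no pairing was seen, which does not exclude it. With the number as a replicate block 7091 genes were called, and RUNX1 was at 0.65 (adjusted p = 1.00e-10), CEBPA at 0.65, TAL1 at 0.79, HOXA10 at 1.05 and POU4F1 at 0.51, all still called (limma-trend).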
